A study of Mus musculus with 12 samples.

Results

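The genes described here were lower in the liver of NLRP6 knockout mice (KO) than of wild-type mice (WT) on a normal diet (ND). On a high-fat diet (HFD), the WT mean stayed within set bounds of the WT mean on ND. The KO mean on HFD stayed within the same bounds of the WT mean on HFD. These genes numbered 178 of the 42554 rows of the count table, and of 11702 annotated genes in the same range of abundance. They were chosen by measured values: counts scaled to a common library total (CPM), averaged over the 3 libraries of each group. A member had a mean of 1 to 1000 CPM over the 12 libraries, a KO ND to WT ND ratio of at most 0.6, and every KO ND library below every WT ND library. Its WT HFD to WT ND ratio and its KO HFD to WT HFD ratio both lay above 0.67 and below 1.5. Genes numbered close to the 1 row that had at least 5 counts in every WT library and 0 in every KO library were left out. Since the choice used the ND difference and bounded the HFD ratios, those differences are given as a description and not as findings.

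Bulk liver RNA was sequenced in 4 groups of 3 libraries: each genotype on ND and each on HFD. All mice ate ND up to an age of 8 weeks. The HFD groups were then switched to HFD for 12 weeks, and the ND groups stayed on ND. The stated question is what NLRP6 does in the build-up of lipid droplets in hepatocytes. The sources used here do not give the knockout allele, the strain or the sex. Nothing states that each library came from a separate animal, and p-values therefore cover the spread between libraries, which may be technical.

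NLRP6 is a NOD-like receptor, a cytosolic sensor that can bring together the adaptor ASC and an inflammatory caspase in an inflammasome, which leads to release of interleukin-18 and interleukin-1 beta. It is best known from the intestinal epithelium, where it has been linked to mucus secretion and to defence against microbes, and it is also expressed in liver. A high-fat diet shifts hepatocytes towards lipid storage and changes the expression of many genes of lipid, sterol and drug metabolism. The row IDs belong to a C57BL/6NJ strain annotation, and 0 of the 178 members could be matched to a gene symbol in the tables used here. Nlrp6 itself, the markers of hepatocytes and of other liver cells, and the members' functions and sequences were therefore not analysed here. The members are described by level and pattern, 4 of them by ID and others by their place in the order of abundance. In bulk liver, fewer cells of a type and less RNA per cell cannot be told apart.

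Library totals ranged from 13339879 to 15933886 counts. The 10 most abundant genes of a library took 15.0% to 23.6% of its counts, at most 17.6% in the 6 ND libraries and at least 18.5% in the 6 HFD libraries. The median gene of the abundance range stood lower in CPM on HFD. On the log2(CPM + 0.5) scale it shifted by -0.33 in WT HFD and by -0.23 in KO HFD relative to WT ND, and by -0.02 in KO ND. With TMM scaling, which sets library sizes so that most genes do not differ, these shifts were -0.06, -0.02 and 0.00.

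The limits on the HFD ratios removed most genes that were lower in KO on ND. Among the 11702 genes of the abundance range, 646 had a KO ND to WT ND ratio of at most 0.6, and in 514 of these the ND groups did not overlap. Of the 514, 252 had a WT HFD to WT ND ratio of at most 0.67 and 49 a ratio of at least 1.5. Another 20 were at or below 0.67 in KO HFD relative to WT HFD, and 15 were at or above 1.5. The 178 members were the remaining 34.6%. Mirrored limits, with a ratio of at least the inverse of 0.6 on ND and the same bounds on HFD, gave 322 genes higher in KO on ND, of which 115 kept to the HFD bounds. Members near a limit differed little from genes just outside it. The highest KO ND to WT ND ratio among members was 0.5999 and the nearest ratio outside was 0.6002, and 67 members lay between 0.55 and 0.6. The lowest WT HFD to WT ND ratio inside was 0.6703 against 0.6669 outside, and the highest was 1.479 against 1.501 outside. For KO HFD to WT HFD the nearest values were 0.675 inside and 0.661 outside at the lower bound, and 1.46 inside and 1.51 outside at the upper.

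**Figure D1:**
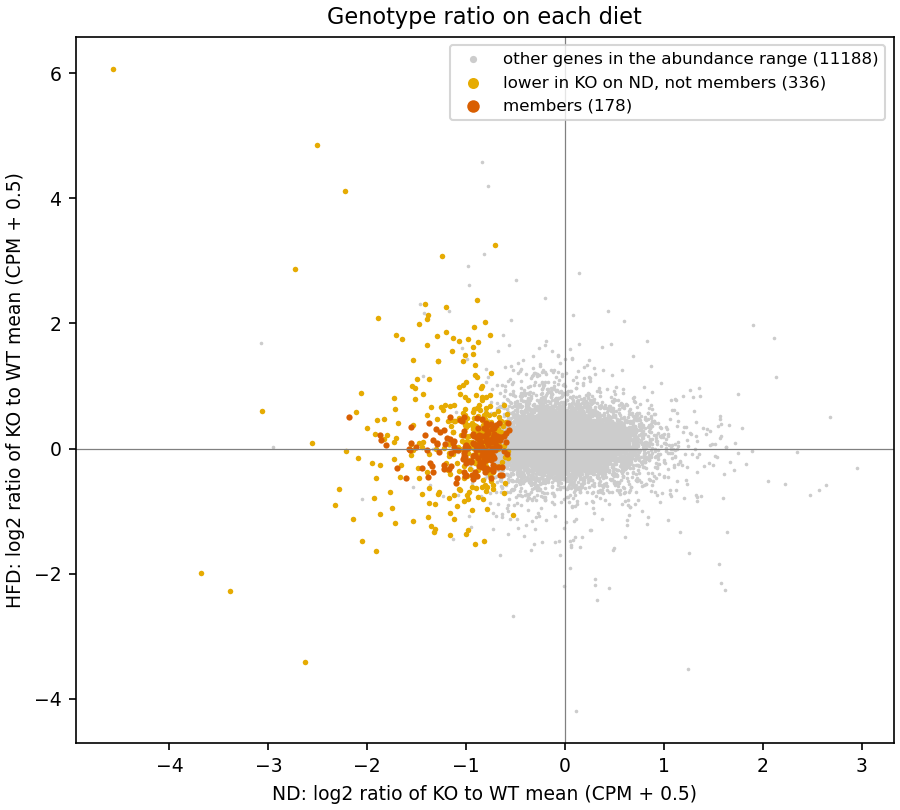
Each point is a gene of the abundance range, with the log2 ratio of the KO to the WT group mean (CPM + 0.5) on ND on the horizontal axis and on HFD on the vertical axis. The 178 members form a band at the left and near 0 on HFD, as the choice requires, while the 336 other genes lower in KO on ND spread further up and down.

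Together the members made up a small part of the liver transcriptome, and that part was smaller in each KO ND library, most so in replicate 2. Their summed level was 6146, 6787 and 5674 CPM in WT ND replicates 1, 2 and 3, and 3225, 2673 and 3268 CPM in KO ND replicates 1, 2 and 3. It was 5953, 5801 and 5904 CPM in WT HFD and 5826, 5375 and 5407 CPM in KO HFD. The highest KO ND sum, 3268 CPM, was far below the lowest of the other 9 libraries, and the HFD sums of both genotypes lay within or just below the range of WT ND. As a share of all counts the members held 0.620% ± 0.0559 in WT ND against 0.306% ± 0.0332 in KO ND (SD, n = 3). On HFD their share was 0.589% ± 0.00776 for WT and 0.554% ± 0.0251 for KO (SD, n = 3). These sums are weighted towards the few abundant members.

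The typical member moved in the same way. Relative to the WT ND mean of each member, on the log2(CPM + 0.5) scale, the median member stood at -0.01, 0.15 and -0.13 in WT ND replicates 1, 2 and 3 and at -0.74, -1.09 and -0.84 in KO ND replicates 1, 2 and 3. In WT HFD the 3 medians were -0.08, -0.10 and -0.08, and in KO HFD they were -0.02, -0.07 and -0.09. The median of all 11702 genes stayed between -0.03 and 0.03 in the 6 ND libraries. In KO ND, replicate 2 was the lowest and replicate 1 the highest of the 3 medians.

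**Figure D2:**
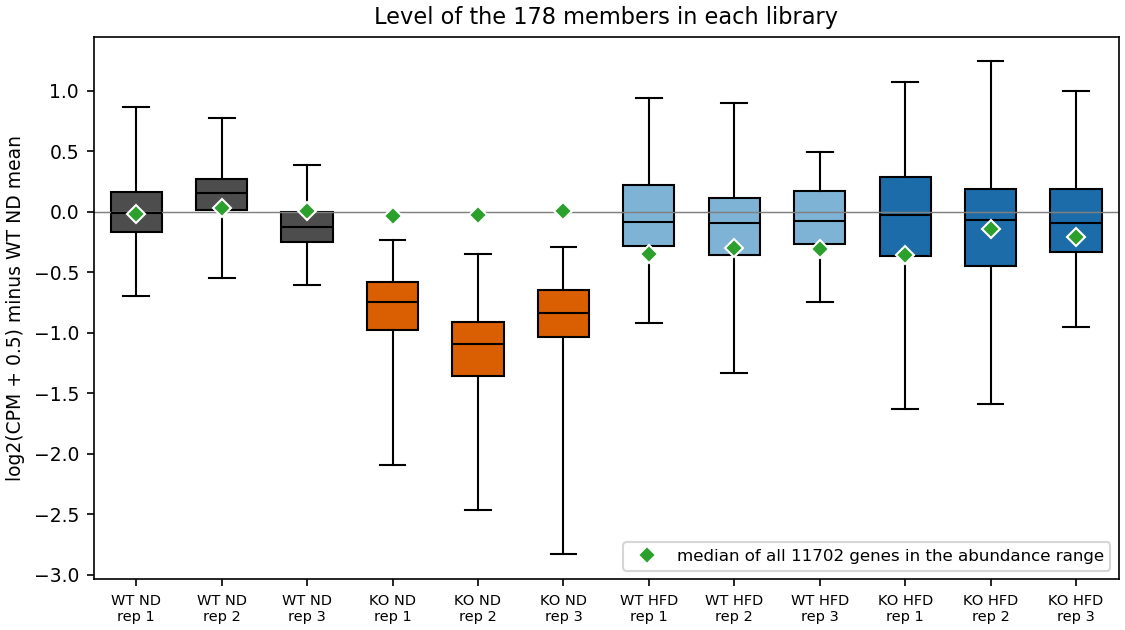
Boxes show the 178 members in each of the 12 libraries as log2(CPM + 0.5) minus each member's WT ND mean, with the median as a line, the quartiles as the box and the lowest and highest member as whiskers. Green diamonds mark the median of all genes in the abundance range, which stays near 0 on ND and lies below the members' median in every HFD library.

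The size of the ND difference varied among members. The median KO ND to WT ND ratio was 0.511, with quartiles of 0.443 and 0.565 and a range from 0.134 to 0.5999. A ratio under 0.25 was found for 4 members, under 0.4 for 29 and under 0.5 for 83. The gap between the groups was often narrow: the lowest WT ND library divided by the highest KO ND library had a median of 1.34, was under 1.1 for 16 members and was at least 2 for 10. Members were less abundant than the genes they were drawn from, with a median of 8.98 CPM against 18.2 CPM. Of the 178, 66 were under 5 CPM, 60 between 5 and 20, 42 between 20 and 100, and 10 at 100 CPM or more. The shares under 5 CPM were 37.1% of members and 22.6% of all genes in the range.

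**Figure D3:**
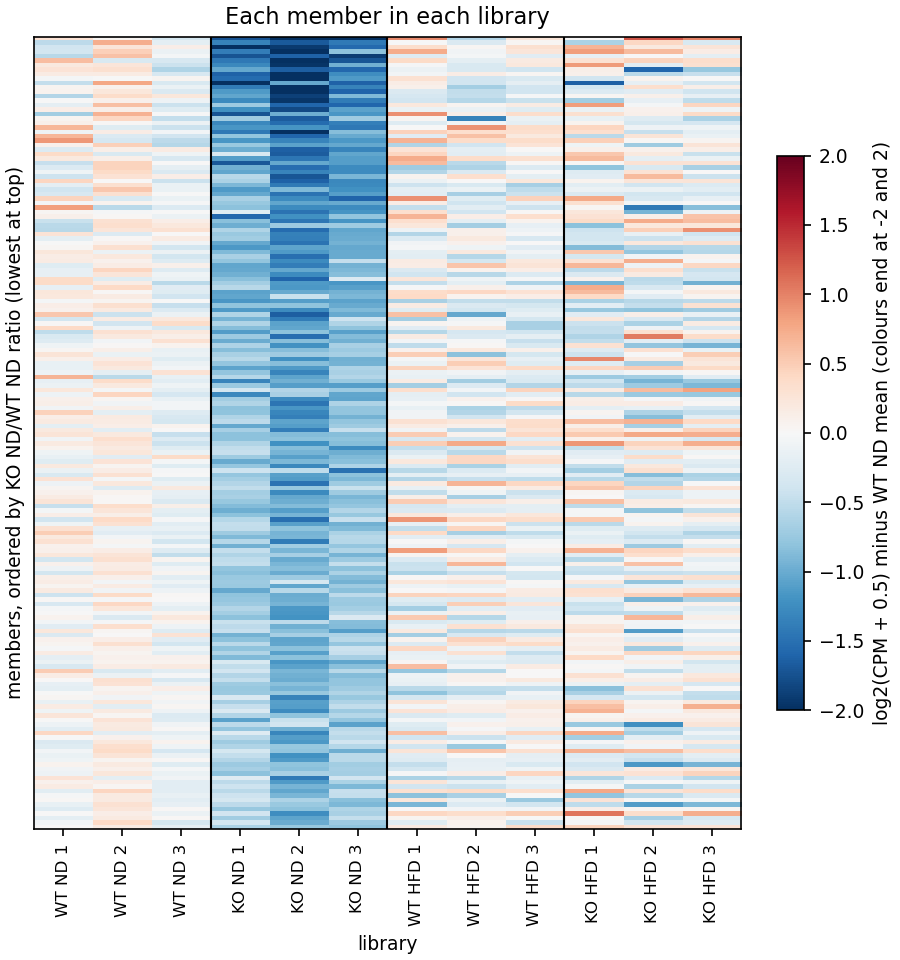
Rows are the 178 members ordered by their KO ND to WT ND ratio, columns the 12 libraries, and colour the log2(CPM + 0.5) minus the WT ND mean of the member, with blue for lower and red for higher. The 3 KO ND columns are blue in every row, while the 9 other columns hold both colours. Replicate 2 is the lowest KO ND library in 132 rows.

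The abundant members carried much of the summed difference: the 10 at 100 CPM or more held 47.1% of it and the second most abundant alone 12.1%. The most abundant member had 439, 630 and 509 CPM in WT ND replicates 1, 2 and 3, 259, 280 and 290 CPM in KO ND, 603, 697 and 661 CPM in WT HFD, and 512, 445 and 447 CPM in KO HFD. Its KO ND values were close together and far below the lowest WT ND library, and its KO HFD libraries all lay below those of WT HFD.

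The second most abundant member had the largest ND difference of the 10 members at 100 CPM or more. It had 607, 607 and 436 CPM in WT ND, 178, 100 and 228 CPM in KO ND, 524, 600 and 558 CPM in WT HFD, and 586, 372 and 394 CPM in KO HFD. KO ND replicate 2 was the lowest library, and KO HFD replicates 2 and 3 lay below all 3 WT HFD libraries while replicate 1 lay among them. Its fitted log2 difference on ND was -1.69 (SE 0.28).

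The fourth most abundant member had close replicates in every group. It had 327, 348 and 335 CPM in WT ND, 150, 156 and 161 CPM in KO ND, 215, 239 and 239 CPM in WT HFD, and 218, 230 and 233 CPM in KO HFD. The 2 HFD groups were alike in range and both lay between the ND groups, without overlap with either. The sixth most abundant member sat at the limit of the choice, with a ratio of 0.5999. It had 208, 232 and 183 CPM in WT ND, 133, 122 and 118 CPM in KO ND, 233, 214 and 269 CPM in WT HFD, and 280, 250 and 250 CPM in KO HFD. In this gene every KO HFD library lay above every WT ND library.

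Of members with a mean of at least 5 CPM, MGP_C57BL6NJ_G0016933 and MGP_C57BL6NJ_G0035760 had the lowest KO ND to WT ND ratios. MGP_C57BL6NJ_G0016933 had 8.46, 19.2 and 12.2 CPM in WT ND replicates 1, 2 and 3, 3.45, 3.79 and 3.02 CPM in KO ND, 10.5, 12.3 and 10.6 CPM in WT HFD, and 11.2, 12.7 and 10.9 CPM in KO HFD. The 3 KO ND libraries were nearly equal and WT ND was the most variable group, with replicate 2 far above replicate 1. The KO ND to WT ND ratio was 0.257 (fitted log2 difference -1.93, SE 0.25). MGP_C57BL6NJ_G0035760 had 91.3, 47.6 and 47.5 CPM in WT ND, 21.6, 10.3 and 17.8 CPM in KO ND, 77.4, 51.8 and 66.8 CPM in WT HFD, and 73.2, 80.3 and 75.3 CPM in KO HFD. Here WT ND replicate 1 stood apart from the other WT ND libraries, and the KO HFD libraries lay together within the range of WT ND. The ratio was 0.266 (fitted log2 difference -1.90, SE 0.31).

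Of the other members with at least 5 CPM, MGP_C57BL6NJ_G0034962 and MGP_C57BL6NJ_G0025143 had the highest KO HFD to KO ND ratios. MGP_C57BL6NJ_G0034962 had 4.76, 8.47 and 3.91 CPM in WT ND, 3.08, 1.47 and 1.48 CPM in KO ND, 6.39, 5.63 and 6.12 CPM in WT HFD, and 10.1, 5.28 and 7.48 CPM in KO HFD. It was 3.80 times higher in KO HFD than in KO ND, and its highest KO ND library was close to its lowest WT ND library. MGP_C57BL6NJ_G0025143 had 29.2, 49.3 and 43.6 CPM in WT ND, 22.1, 14.3 and 17.2 CPM in KO ND, 50.4, 34.5 and 41.6 CPM in WT HFD, and 52.2, 67.1 and 61.2 CPM in KO HFD. All 3 KO HFD libraries exceeded every other library of this gene, and the KO HFD to KO ND ratio was 3.37.

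**Figure D4:**
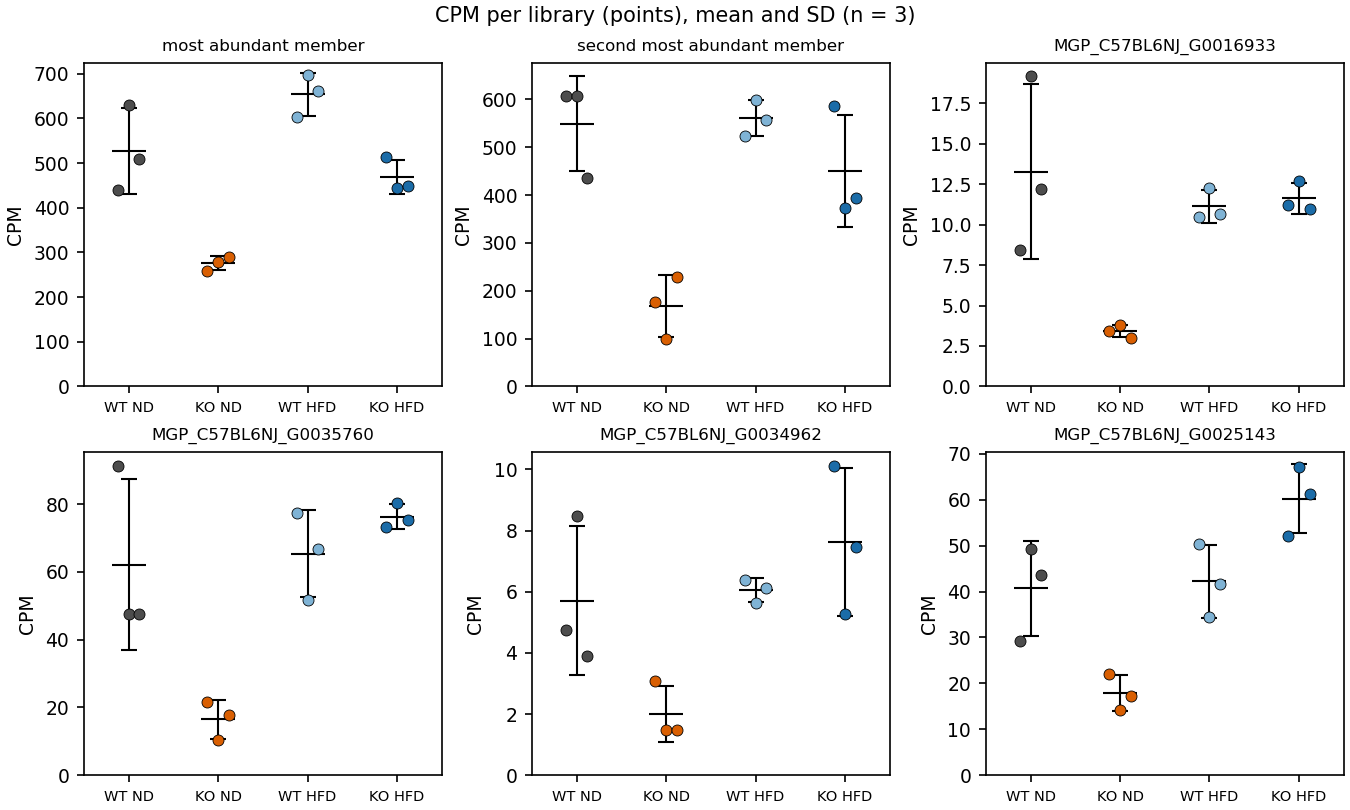
Points are CPM in single libraries, in replicate order from left to right within each group, for the 2 most abundant members and the 4 members given by ID, with the mean as a bar and the SD (n = 3) as whiskers on axes that start at 0. In every panel the 3 KO ND points lie below the 3 WT ND points, and all HFD points lie above all KO ND points.

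The 4 members with a ratio under 0.25 were all under 5 CPM. The lowest ratio, 0.134, belonged to a gene with 85, 67 and 48 counts in WT ND and 16, 9 and 3 counts in KO ND, and with 125, 41 and 75 counts in WT HFD and 60, 152 and 139 counts in KO HFD. Its ND groups were far apart, while its HFD libraries varied widely within each genotype. The next ratio, 0.142, rested on 5, 2 and 4 counts in KO ND against 14, 41 and 18 in WT ND. The third, 0.174, belonged to a gene with 39, 61 and 55 counts in WT ND and 7, 8 and 13 in KO ND, and with 53 to 64 counts in WT HFD and 55 to 79 in KO HFD, so its HFD groups lay close together. The fourth, 0.242, had 9, 1 and 16 counts in KO ND. Ratios of such low counts carry a large counting error.

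Across the whole table, 13843 genes had enough counts for a quasi-likelihood test in edgeR, and all 178 members were among them. These tested genes were not limited to the abundance range and include unannotated loci. On ND, 104 members were called lower in KO at an adjusted p under 0.05, against 2.85% of all genes tested, and 74 were not called although every one of them met the choice. The median fitted log2 difference was -0.95 for members and 0.00 for all genes tested. By abundance, 46 of the 52 members at 20 CPM or more were called and 15 of the 66 under 5 CPM. The share of all tested genes called at these abundances is not given here, so no pattern with abundance is read. The contrast chose the members, so nothing is read from these counts. They moved with single libraries, and so did the calls over all genes tested, of which 666 were called in either direction with every library. Leaving out replicate 1 of either ND group gave 66 called members, with 420 called over all genes for the WT ND library and 334 for the KO ND library. Leaving out WT ND replicate 2 gave 30 members and 119 over all genes, and leaving out KO ND replicate 2 gave 26 and 92. Leaving out KO ND replicate 3 gave 45 and 255, and leaving out WT ND replicate 3 gave 82 and 460.

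The library numbered 2 in each ND group was the most extreme for most members. WT ND replicate 2 was the highest WT ND library for 102 members, 57.3%, against 37.9% of all genes in the abundance range. KO ND replicate 2 was the lowest KO ND library for 132 members, 74.2%, against 38.2% of all genes. Both held for 74 members. For the 56 members highest in WT ND replicate 1, KO ND replicate 2 was still the lowest KO library in 42. The other 336 genes lower in KO on ND leaned the same way, at 53.6% for WT ND replicate 2 and 59.5% for KO ND replicate 2. Without both libraries numbered 2, which was tried after the data had been seen, the rule chose 149 genes, 109 of them members, and 6 of the 178 members were called on ND, with 27 called over all genes tested. What sets these 2 libraries apart was not tested.

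The rule was applied again without 1 WT ND and 1 KO ND library, for each of the 9 pairs. The KO to WT ratio was then taken in the pair left out, as (CPM + 0.5) in both. The rule itself was set with earlier results of these data known, so the pairs left out were not unseen. These choices held 149 to 314 genes, 103 to 161 of them members. In the libraries used, the median KO ND to WT ND ratio, of mean CPM without the added 0.5, was 0.504 to 0.529. In the libraries left out it was 0.464 to 0.764, with a middle value of 0.642, while the median over all genes of the abundance range was 0.958 to 1.01 in the same pairs. A ratio under 1 was found in 79.6% to 94.0% of the chosen genes and in 47.6% to 55.8% of all genes. A ratio of at most 0.6 was met again by 22.9% to 72.5% of the chosen genes and by 3.81% to 10.6% of all genes. The median ratio of the chosen genes was under 1 in all 9 pairs left out. In 8 of the 9 it was above the median in the libraries used. The added 0.5 moves ratios of low genes towards 1, so the size of that gap is not read. The exception was the pair of libraries numbered 2, which had the lowest median, 0.464. The 9 pairs share libraries and are not independent.

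**Figure D5:**
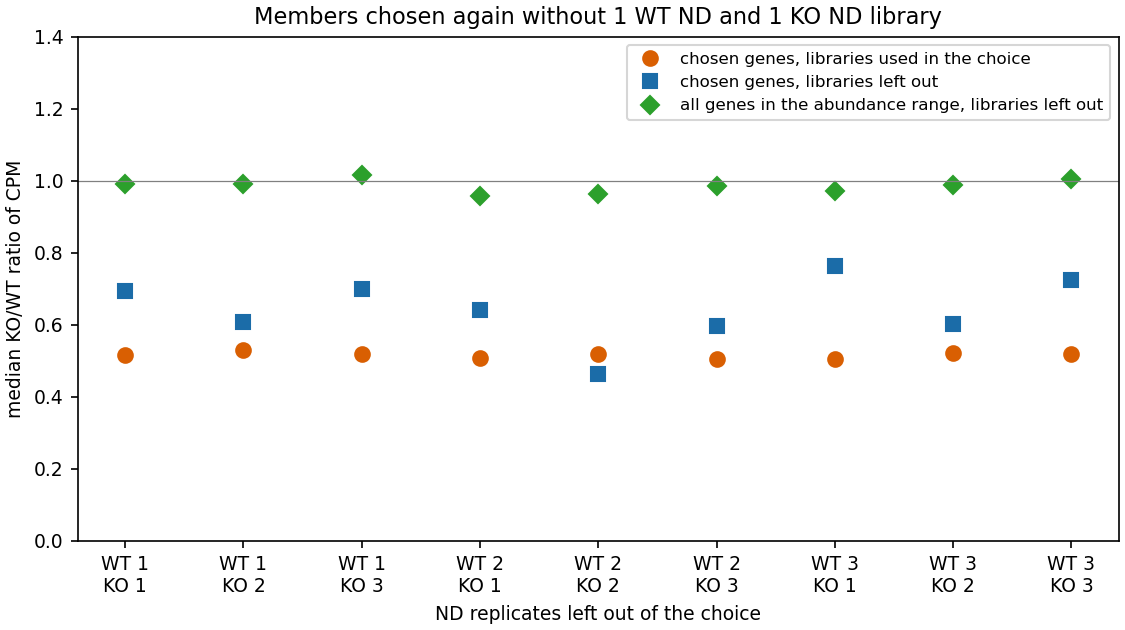
For each of the 9 choices, orange circles give the chosen genes' median KO to WT ratio of mean CPM in the ND libraries used. Blue squares give their median ratio of (CPM + 0.5) in the pair of ND libraries left out. Green diamonds give the latter for all genes of the abundance range. The blue squares lie between 0.464 and 0.764, above the orange circles except for the pair numbered 2 and below the green diamonds in every case.

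In WT the members differed little between diets on the CPM scale, as the limits require. With TMM scaling they stood a little higher on HFD: their median fitted log2 difference between HFD and ND in WT was 0.18, against -0.03 over all genes tested, and 133 of 178 were positive. By edgeR, 21 members were called higher, where 19.5% of all genes were called higher, and 0 were called lower, where 21.5% of all genes were. The 21 rose by a fitted log2 of 0.44 to 0.86. Lower on HFD at an unadjusted p under 0.05 was 1 member, against 26.1% of all genes, and DESeq2 called 1 lower, against 18.3%. On the CPM scale the median member was at -0.11 in WT HFD and -0.11 in KO HFD relative to WT ND, and on the TMM scale at 0.15 and 0.10, so the sign of the small diet difference in WT depended on the scaling. The count of 21 became 13, 12 and 11 when WT HFD replicate 1, 2 or 3 was left out. It became 16, 19 and 4 when WT ND replicate 1, 2 or 3 was left out. The 5676 calls over all genes in either direction became 4633, 5084 and 4491 for WT HFD, and 5319, 4567 and 4380 for WT ND.

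In KO most members were higher on HFD than on ND. The 3 ratios of the rule together allow no KO HFD to KO ND ratio under 0.748, so a rise is in large part built in. The ratio had a median of 1.91, quartiles of 1.55 and 2.48, and a range from 0.927 to 13.7. By edgeR 151 members were called higher on HFD, with 22.6% of all genes called higher, and 27 were not called. The median fitted log2 difference was 1.12 for members and 0.01 for all genes tested. All 178 were positive in this fit, which uses TMM scaling, whereas the lowest ratio on the CPM scale was 0.927. Every KO HFD library lay above every KO ND library for 138 members, 77.5%, against 19.2% of all genes in the abundance range. Every WT HFD library lay above every KO ND library for 150 members, 84.3%, against 19.6%. The limits of the rule force the WT HFD mean of each member above its KO ND mean, so nothing is read from that share. Of the 104 members called on ND, 100 were called here too, and both calls use the KO ND libraries. Leaving out any 1 of the 6 KO libraries gave 127 to 149 called members, with 5045 to 6251 called over all genes tested in either direction.

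The rule bounded WT HFD relative to WT ND and KO HFD relative to WT HFD. The closeness within each of these pairs was set by the choice and is only described. KO HFD relative to WT ND was bounded only through both limits together, and so more loosely. The median KO HFD library lay within the range of the 3 WT ND libraries for 79 members, below it for 63 and above it for 36, on the CPM scale, and it lay within for 26.1% of all genes of the abundance range. The median WT HFD library lay within that range for 99 members, below it for 55 and above it for 24, and within for 22.1% of all genes. The KO HFD to WT HFD ratio had a median of 1.02 over the members, with quartiles of 0.884 and 1.15. By edgeR 0 members were called between KO and WT on HFD, where 0.246% of all genes were called in either direction; 10 members had an unadjusted p under 0.05, against 11% of all genes tested. DESeq2 called 2 members, against 1.79% of its genes. The fitted log2 differences of members ran from -0.64 to 0.48, with a median of -0.05. Without KO HFD replicate 1, 8 members (4.49%) were called, against 5.79% of all genes tested. The HFD groups did not overlap for 15 members, 8.43% of them, against 13.1% of all genes in the abundance range. KO lay above WT in 10 members, 5.62%, against 8.84% of all genes in that range. It lay below WT in 5 members, 2.81%, against 4.26%.

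The interaction, which asks whether the diet response differed between genotypes, was called for 19 members, all with a higher response in KO, against 0.766% of all genes in that direction. It is the KO to WT ratio on HFD over that on ND, and the rule set both: the former had to exceed the latter by at least 1.12 times. The counts therefore describe the choice, and nothing is read from them. The 19 were all called on ND too, and the log2 interaction had a median of 0.91 over all members. An unadjusted p under 0.05 was found for 117 members, against 16.5% of all genes. The log2 interaction was 1.92 (SE 0.33) for MGP_C57BL6NJ_G0016933, 2.05 (SE 0.42) for MGP_C57BL6NJ_G0035760 and 1.60 (SE 0.28) for MGP_C57BL6NJ_G0025143, and these 3 were among the 19. The call was lost in 3, 10 and 5 of 17 alternatives for these 3 genes in the same order. MGP_C57BL6NJ_G0034962, at 1.75 (SE 0.50), was not called. The count of 19 moved with the calls over all genes tested, which numbered 167 in either direction. Leaving out KO HFD replicate 1, 2 or 3 gave 39, 11 and 3 called members, with 942, 80 and 18 called over all genes. Leaving out WT HFD replicate 1, 2 or 3 gave 14, 8 and 0, with 119, 78 and 11 over all genes. Leaving out KO ND replicate 1, 2 or 3 gave 15, 7 and 11, with 99, 55 and 88 over all genes. For WT ND replicate 1, 2 or 3 the counts were 19, 6 and 12, with 189, 57 and 95. DESeq2 called 57 members, against 4.18% of its genes.

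The HFD libraries give the members' spread where the rule used only group means. The median SD of log2(CPM + 0.5) between replicates was 0.21 for members and 0.19 for all genes of the range in WT HFD, and 0.25 for members and 0.25 for all genes in KO HFD. In WT HFD replicates 1, 2 and 3 were the highest library for 63, 60 and 55 members, with no library leading. In KO HFD replicate 1 was the highest for 84 members, 47.2%, against 31.3% of all genes, and replicate 2 for 54 members, 30.3%, against 48.9%. Across all genes of the range, KO HFD replicate 1 had a median of -0.35 relative to WT ND, against -0.14 and -0.21 in replicates 2 and 3. The members' medians in the same 3 libraries were -0.02, -0.07 and -0.09. On ND, where the rule used each library, the members' SDs were 0.26 in WT ND and 0.27 in KO ND against 0.18 and 0.16 for all genes.

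Beside the other 336 genes that were lower in KO on ND, the members had slightly smaller ND differences, with a median ratio of 0.511 against 0.475. The other genes had a median WT HFD to WT ND ratio of 0.530, where members had 0.928, a difference the limits impose. In KO the median HFD to ND ratio was 1.42 for the other genes and 1.91 for members. Relative to WT ND, the other genes' median stood at -0.83, -0.83 and -0.81 in the WT HFD libraries and at -0.90, -0.50 and -0.55 in KO HFD replicates 1, 2 and 3, so that their level on HFD was low in both genotypes. In KO ND replicates 1, 2 and 3 the other genes stood at -0.89, -1.14 and -0.90, beside -0.74, -1.09 and -0.84 for the members. The 115 genes of the mirrored choice had a median KO ND to WT ND ratio of 1.89 and a median KO HFD to KO ND ratio of 0.511. The mirrored limits build in these directions too. In that set 52 were called higher in KO on ND, against 1.96% of all genes tested, 66 were called lower on HFD in KO, against 22.1%, and 9 had a lower diet response in KO, against 0.441%.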

How the data were processed

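The authors deposited raw read counts per gene for 12 liver libraries in 1 table. Libraries were made with the NEBNext Ultra RNA kit from TRIzol RNA, per the labels' protocols. HISAT2 2.0.5, featureCounts 1.5.0-p3 and the build mm39 are named in the submitters' processing notes. The row IDs are of a C57BL/6NJ strain annotation, not of that build's reference strain. It is therefore not certain on which build reads were counted, and coordinates are left out. Strand setting and treatment of reads shared by near-identical or overlapping genes are not given in the sources used here. Single members may therefore hold reads of a copy or of an antisense partner. None of the 42554 row IDs matched a symbol (0 matches).

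Members were found by the rule on CPM of the library total. All genes kept by filterByExpr were fitted in 1 model with a mean per group over the 12 libraries (edgeR 4.0.16 in R 4.3.3, TMM, robust quasi-likelihood F-test), with Benjamini-Hochberg adjustment over all genes tested and a limit of 0.05. The SE given with a fitted log2 difference is the absolute difference divided by the square root of its F statistic. DESeq2 1.42.0 was an alternative. Values on the log2(CPM + 0.5) scale understate changes of low genes. No 2 replicates were duplicates (chi-square per degree of freedom 8.05 to 165). The steps were tested on simulated data. The members, the rule and the lists were chosen with earlier results of these data known. Without symbols, the rule for naming took the 2 members of at least 5 CPM with the lowest KO ND to WT ND ratio and the 2 others with the highest KO HFD to KO ND ratio. Members given by abundance, and those with a ratio under 0.25, were chosen after their values were seen.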

Additional observations from a re-analysis of the deposited data

Results flagged for a closer look

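The interaction test called 19 members, all with a higher diet response in KO, against 0.766% of all genes tested in that direction. The limits of the rule set that direction, so nothing is read from the count. Without both ND libraries numbered 2, 0 members were called, with 9 called over all genes tested. Among the members given by ID, the log2 difference between the diet responses was 1.92 for MGP_C57BL6NJ_G0016933, 2.05 for MGP_C57BL6NJ_G0035760 and 1.60 for MGP_C57BL6NJ_G0025143. Over 17 alternatives the call was lost in 3 for the first, in 10 for the second and in 5 for the third, and the log2 difference stayed positive in each.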

How the results depend on the processing

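Of 87 alternative values for the counts and the ratio in left-out libraries, 61 stayed near the reported value and 26 did not. Near meant within 1.5 times for a count, and within the SD over the 9 pairs for the ratio. Among the 61 was a mean share of chosen genes with a ratio under 1, at 0.872, which was judged by a limit of its own. The causes were not tested beyond what each setting does. The rule gave 83 genes with a ND ratio of at most 0.5, 312 with 0.67 and 85 with narrower limits on the HFD ratios. TMM library sizes gave 200, of which 138 are members, group medians 162 with 124 shared, and leaving out 1 library 145 to 251. Leaving out 1 library gave 26 to 82 members called on ND, with 92 to 460 called over all genes tested in either direction. Between genotypes on HFD it gave 0 to 8, with 7 to 822 over all genes. For HFD in WT it gave 4 to 19, with 4380 to 5319, and for HFD in KO 127 to 149, with 5045 to 6251. For the interaction it gave 0 to 39, with 11 to 942. Without both ND libraries numbered 2, 6 members were called on ND, with 27 over all genes, and 0 for the interaction, with 9 over all genes. DESeq2 called 2 members on HFD, against 1.79% of its genes, and 57 for the interaction, against 4.18%. The median ratio in left-out libraries was 0.679 with TMM and 0.646 without the demand for non-overlap.

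With the replicate number as a block, 117 members were called on ND, against 6.44% of all genes tested, and 0 on HFD, against 0.34%. For HFD in WT 24 were called, against 43.8%, for HFD in KO 157, against 47.2%, and for the interaction 21, against 1.43%. These shares over all genes are of calls in either direction. Same-numbered libraries of 2 groups had correlated deviations over 0.1 in 5 of 18 pairs (-0.02 to 0.25), and since not every pair passed that value the numbers were not taken to pair samples. As a hint from the data, 8 of 12 libraries correlated best with their own number. For the 4 members given by ID, 137 alternatives changed no call, 26 ended one and 1 added one, and none reversed a direction.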

Other observations

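Outside the annotated genes, 8 unannotated loci met every other limit of the choice. Within the range of IDs left out around the gene absent from KO, 223 genes had the required abundance and 5 met every other limit. None of these rows is a member.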
